A study of Mus musculus with 18 samples.

Results

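The comparison described here is that of sorted with unsorted LCP cultures on day 10 of differentiation, 2 libraries of each. These are 4 of the 18 RNA sequencing libraries of a study of mouse cochlear cells, chosen by their sample titles. The labels do not spell out LCP, which is taken to mean progenitors from cochlear cells that express Lgr5. The other libraries come from LCP cultures at earlier days (D0, D2 and D4) and from native cells sorted for Atoh1, Lgr5 or Sox2 at postnatal day 2 (P2). The unsorted group (LCP D10) is the mixed culture after 10 days of differentiation, from primary cochlear organoids, with no sort. The sorted group (LCP sorted D10) is the same kind of culture on the same day, marked as sorted. Which reporter, antibody or gate was used on the cultures, and their strain and culture medium, is not stated by the labels. A treatment passage in the labels names tamoxifen, a Sox2-CreER driver and a floxed beta-catenin allele (the gene Ctnnb1). No sample title or characteristic mentions them, and whether these cultures carried the allele is not said. The protocol in the labels describes each sample as coming from both ears of a single pup, in a passage on dissected epithelium, and how far this holds for the cultures is not said. Nothing says that the 2 libraries of a group came from separate cultures, so p-values measure a spread between libraries, which may be technical. That spread was estimated per gene over all 9 groups of the 18 libraries, not from the 4 day 10 libraries alone. It takes the groups to vary alike.

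Hair cells are the mechanosensory cells of the cochlea. A bundle of stereocilia on their upper face carries the transduction channel, which is opened by tip links between neighboring stereocilia, and a ribbon synapse at their base passes the signal to the auditory nerve. Supporting cells surround them and share gap junctions, epithelial junctions and keratins. In the newborn mouse, supporting cells that express Lgr5, a receptor that amplifies Wnt signals, can divide and form hair cells in culture, which is the basis of LCP cultures. Atoh1 switches on the hair cell program, and the transcription factors Pou4f3 and Gfi1 act after it.

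Values are TPM, transcript abundance corrected for length with an equal sum in every library. TPM hold no read numbers, and the sequencing depth and the counting error are unknown. Differences are sorted minus unsorted on the log2(TPM + 1) scale, with their SE, and p-values are from limma with Benjamini-Hochberg adjustment over the 12190 protein-coding genes that reached 1 TPM in 2 or more of the 4 libraries. A gene can enter through 1 group only, so counts over the tested members of a list are descriptions. A gene was called when the adjusted p was under 0.05. In unsorted replicates 1 and 2 and sorted replicates 1 and 2, 14764, 15048, 16539 and 15932 genes of any type reached 1 TPM. Protein-coding genes took 68.4 and 66.8% of the TPM in the unsorted and 62.9 and 58.1% in the sorted libraries, and mitochondrial genes took 7.04 and 7.88% against 9.09 and 10.9%. Malat1, a nuclear noncoding RNA, had 1449 and 2290 TPM in the unsorted and 11420 and 10657 TPM in the sorted libraries. The part of these differences in the results was not tested.

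The sorted libraries had higher levels of a few hair cell genes, Loxhd1, Cdh23, Myo15, Cacna1d and Slc17a8 among them, and lower levels of some supporting cell, epithelial and matrix genes, such as Sox9, Epyc, Cdh1, Krt19 and Lum. Most members of each of these lists were not called. At the adjusted threshold, 690 of 12190 genes were called (5.66%). Of these, 285 (2.34%) were higher and 405 (3.32%) lower in the sorted libraries. The median ratio of mean TPM was 4.28 (sorted over unsorted) among the higher calls and 4.5 (unsorted over sorted) among the lower calls. Lower calls were the more abundant genes, with a median of 35.9 TPM in the unsorted group, against 11.2 TPM in the sorted group for higher calls. Of the higher calls, 43 had no standard gene name or were ribosomal or mitochondrial, against 3 of the lower calls. In bulk RNA, fewer cells of a type and less RNA per cell cannot be told apart.

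The number of calls rested on the spread of few libraries. Without unsorted replicate 1, 11 genes were called. Without sorted replicate 1, 21 were called, and without sorted replicate 2, 34. Leaving out unsorted replicate 2 gave 1878 calls. With the 4 day 10 libraries fitted alone, 2 genes were called, while 2682 had an unadjusted p under 0.05. Same-numbered day 10 libraries share a sequencing date, and with the replicate number as a block 1973 genes (16.2%) were called, 636 higher (5.22%) and 1337 lower (11%). The block is 1 term for all 9 groups. Over genes, the deviations of the unsorted and sorted day 10 libraries from their group means had a correlation of -0.0112. A value near 0 over genes, from 1 deviation per group, cannot show that a shared replicate deviation is absent. Over the 36 pairs of groups, 23 had a correlation over 0.1. Values with the block are given as an alternative only. Across the scalings, higher calls were 41.3% of all calls with TPM as deposited, 55.2% (579 higher and 469 lower) with TMM scaling and 51.8% (707 higher and 657 lower) with quantile normalization. These scalings moved the median difference of all genes, which was -0.14, by 0.177 and 0.155, so a difference within about that range of 0 has no fixed direction here.

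**Figure D1:**
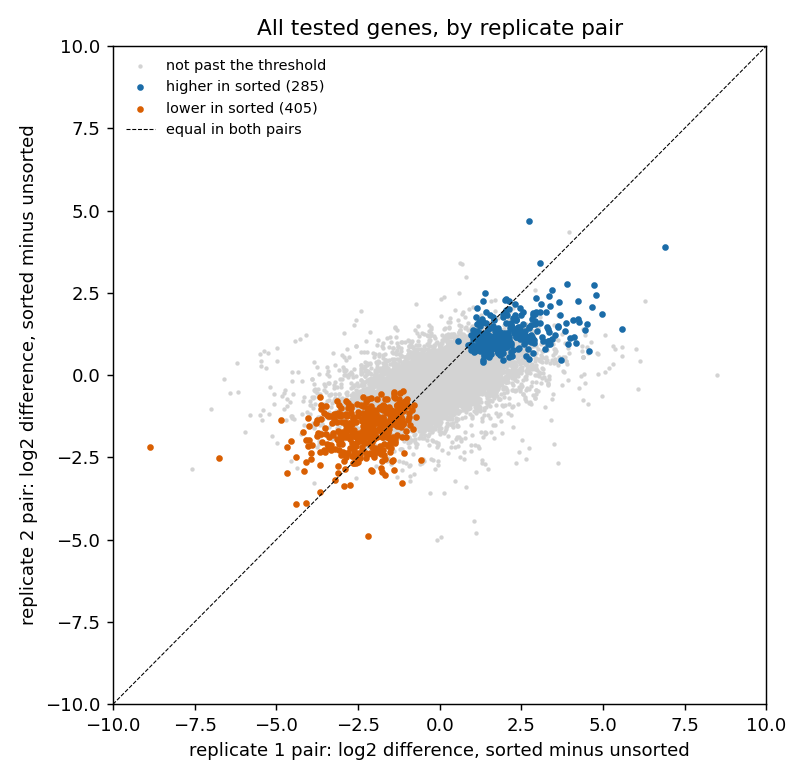
Log2 difference (sorted minus unsorted, log2(TPM + 1) scale) of every tested gene in the replicate 1 pair (x axis) and the replicate 2 pair (y axis), with called genes in color. The higher and lower calls lie on opposite sides of 0, and the spread is wider along the replicate 1 axis, where unsorted replicate 1 is the reference.

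The unsorted libraries differed from each other more than the sorted ones did. Across the tested genes, Pearson's r of log2(TPM + 1) was 0.972 between the sorted libraries and 0.894 between the unsorted ones. The SE and p-values take all groups to vary alike, so they may be too small for genes uneven between the unsorted libraries. Unsorted replicate 2 had r of 0.923 and 0.932 with the sorted libraries, above its r with unsorted replicate 1, whose own values with the sorted libraries were 0.806 and 0.817. These are descriptions over genes, which are not independent, and the libraries share the annotation and the scaling. Unsorted replicate 2 lay between unsorted replicate 1 and the sorted mean for 257 of the 285 higher calls (90.2%). It did so for 330 of the 405 lower calls (81.5%) and 6995 of all 12190 tested genes (57.4%). Unsorted replicate 1 lay between unsorted replicate 2 and the sorted mean for 26 higher calls, 75 lower calls and 2432 of all tested genes. In every call both unsorted libraries lay on the same side of both sorted ones. With calls chosen so, 1 of the unsorted libraries is nearly always between, and the share over all genes is not a like background. The median distance of the sorted mean from unsorted replicates 1 and 2 was 1.81 and 1.26 for higher calls and -2.17 and -1.54 for lower calls, on the log2 scale. In most called genes the mixed culture of replicate 2 was nearer the sorted cells than that of replicate 1.

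The 4 genes that mark the comparison moved in the directions given for them. They were set with earlier results of these data known, so these directions are descriptions and no independent support. Loxhd1, a stereocilia protein needed for mature mechanotransduction, had 12.8 and 18.5 TPM in unsorted replicates 1 and 2 and 99.3 and 71.2 TPM in sorted replicates 1 and 2. Its difference was 2.38 (SE 0.53, adjusted p = 0.0234), with 2.86 in the replicate 1 pair and 1.89 in the replicate 2 pair. Both sorted libraries were well above both unsorted ones, which lay close together. Cacna1d, the pore of the calcium channel at the hair cell ribbon synapse, had 2.99 and 5.33 TPM unsorted and 20.3 and 13.2 TPM sorted (difference 1.79, SE 0.37, adjusted p = 0.0186).

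Lum, a small leucine-rich proteoglycan of the extracellular matrix, had 229 TPM in both unsorted libraries and 12.6 and 14.7 TPM in the sorted ones, so each group was even. Its difference was -3.98 (SE 0.69, adjusted p = 0.0109), and it was -4.08 and -3.88 in the pairs. Nupr1, a small stress-induced nuclear protein, had 823 and 10.6 TPM unsorted and 0.761 and 1.57 TPM sorted (difference -5.52, SE 1.36, adjusted p = 0.0363). The groups did not overlap, but the replicate 1 pair differed by -8.87 and the replicate 2 pair by -2.17. The size of the Nupr1 difference thus rested on unsorted replicate 1. In a limma fit of the 4 day 10 libraries alone, the adjusted p was 0.179 for Nupr1 and 0.044 for Lum. By the annotation, Loxhd1 spans chr18:77281958-77442930, Cacna1d chr14:30039939-30491455, Lum chr10:97565128-97572703 and Nupr1 chr7:126623249-126630861 (mouse GRCm38), each a protein-coding gene. Leaving out any of the 4 libraries except unsorted replicate 2 ended all but 2 or fewer of the 38 calls among the 69 named genes, and Col6a4 alone kept its call without each of the 4.

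**Figure D2:**
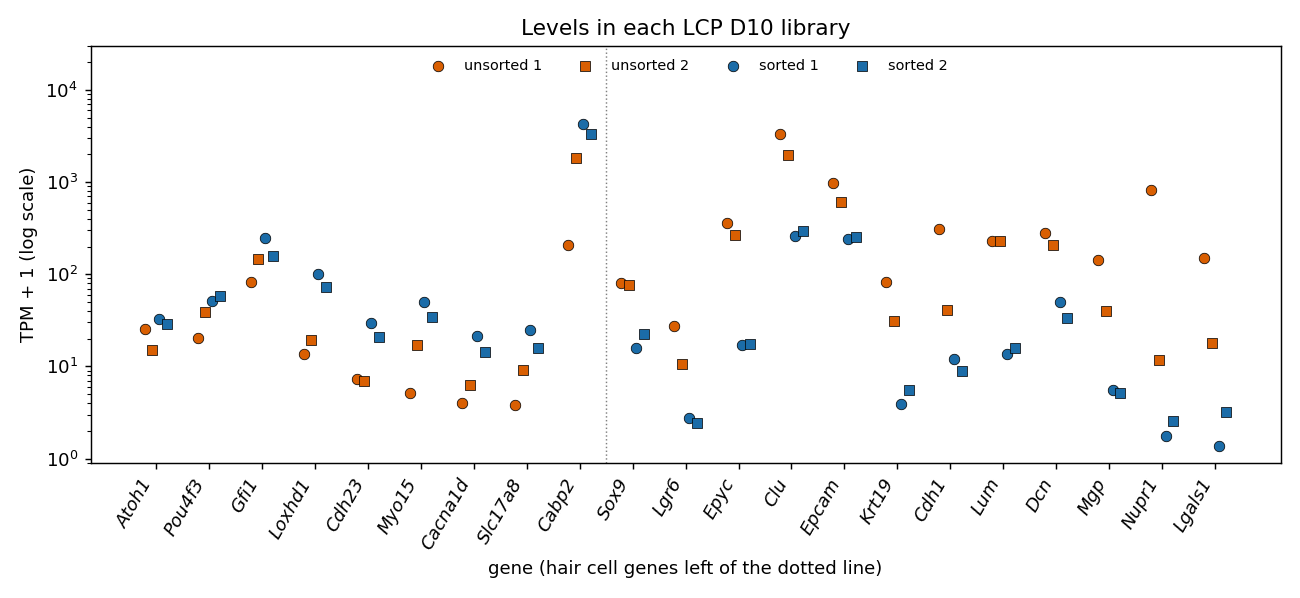
TPM + 1 (log axis) of selected genes in each of the 4 libraries, with unsorted and sorted libraries in separate colors and the replicate number by symbol. Loxhd1, Cacna1d, Lum and Nupr1 separate the groups, and for Nupr1 unsorted replicate 2 (10.6 TPM) lies far from unsorted replicate 1 (823 TPM).

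The transcription factors that specify hair cells did not pass the test. Of 11 listed, 10 were tested and 0 were called. Both sorted libraries were above both unsorted ones for 6, below for 1 and overlapping for 3, and the median difference was 0.54, against -0.14 over all genes. Non-overlap of this kind was common: both sorted libraries lay above both unsorted ones for 24.6% of all tested genes and below them for 33.9%. Atoh1 had 24.3 and 14.2 TPM unsorted and 31.5 and 27.5 TPM sorted, a difference of 0.64 (SE 0.66, adjusted p = 0.558). Pou4f3, needed for hair cell survival, had 19.4 and 37.9 TPM against 50.3 and 56.6 TPM (adjusted p = 0.378). Gfi1, a repressor needed for hair cell maturation, had 80.9 and 145 TPM against 244 and 158 TPM (adjusted p = 0.356). The sorted values of these 3 genes were higher, and none of the 3 differences passed the test.

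Among the genes of the transduction apparatus, all 13 listed were tested, and 2 were called, both higher. For 10 of the 13 the sorted libraries lay above the unsorted ones, against 24.6% of all tested genes. The median difference was 1.46 (2.36 in the replicate 1 pair, 0.54 in the replicate 2 pair). The called genes were Loxhd1 and Cdh23, the cadherin that forms the upper part of the tip link. Cdh23 had 6.25 and 5.87 TPM unsorted and 28.9 and 19.6 TPM sorted, a difference of 1.82 (SE 0.43, adjusted p = 0.0327) that was alike in the pairs (2.05 and 1.58). Pcdh15, the cadherin of the lower part of the tip link, had 4.6 and 5.7 TPM against 15.9 TPM in both sorted libraries. It missed the threshold without the block (adjusted p = 0.0608) and passed it with the replicate block (adjusted p = 0.0358).

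Other members were higher in both sorted libraries but uneven between the unsorted ones. Cib3, a calcium- and integrin-binding subunit of the transduction complex, had 32.8 and 820 TPM unsorted and 2196 and 1411 TPM sorted (difference 3.40, SE 1.14, adjusted p = 0.0867). Tmc1, which forms the pore of the transduction channel, had 9.04 and 39.9 TPM against 86.8 and 46.6 TPM (adjusted p = 0.144). Myo7a, the motor at the upper end of the tip link and a usual hair cell marker, had 16.2 and 37.4 TPM against 67.6 and 49.8 TPM (adjusted p = 0.216). In each of the 3, unsorted replicate 2 was well above unsorted replicate 1.

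Of 24 stereocilia genes, all tested, 1 was called higher and 0 lower, with 3 higher under the replicate block. The sorted libraries lay above the unsorted ones for 17, against 24.6% of all tested genes, and overlapped for 7. The median difference was 0.92 (1.61 and 0.20 in the pairs). Myo15, the motor that carries the proteins that lengthen stereocilia to their tips, had 4.11 and 15.9 TPM unsorted and 49.4 and 33.3 TPM sorted (difference 2.16, SE 0.54, adjusted p = 0.0376). Espn, which bundles the actin of stereocilia, was the most abundant uncalled member, with 170 and 507 TPM against 986 and 834 TPM (adjusted p = 0.102, and 0.0411 with the replicate block). Pdzd7, of the Usher protein complex at the ankle of the bundle, had 7.83 and 9.61 TPM against 25.8 and 20.3 TPM (adjusted p = 0.0692, and 0.0306 with the block).

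At the ribbon synapse, 9 of 12 listed genes were tested and 2 were called, both higher. These were Cacna1d and Slc17a8, the vesicular glutamate transporter of inner hair cells. Slc17a8 had 2.79 and 8.2 TPM unsorted and 23.7 and 14.8 TPM sorted (difference 1.74, SE 0.46, adjusted p = 0.046). Cabp2, a calcium-binding protein that regulates the channel, was by far the most abundant member at 208 and 1808 TPM against 4251 and 3361 TPM (difference 2.62, SE 0.97, adjusted p = 0.113). Otof, the calcium sensor for vesicle release, had 22.4 and 129 TPM against 192 and 126 TPM, so its groups overlapped (adjusted p = 0.218). The list's summed level was 305 and 2022 TPM in the unsorted and 4567 and 3590 TPM in the sorted libraries.

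Ion channels, receptors and calcium buffers gave no call. Of 10 listed channels and receptors, 9 were tested, with a median difference of 1.06, and 1 was called higher under the replicate block. That gene, Chrna10, a subunit of the acetylcholine receptor that takes efferent signals, had 27.4 and 70.1 TPM unsorted and 219 and 129 TPM sorted (adjusted p = 0.0831, and 0.039 with the block). Kcna10, a potassium channel of hair cells, had 177 and 573 TPM against 1163 and 771 TPM (adjusted p = 0.196). Of 7 calcium buffers and pumps, 6 were tested, with a median of 1.04. S100a1, the most abundant of them, had 1946 and 4844 TPM against 6313 and 7335 TPM (adjusted p = 0.316), and Ocm, the calcium buffer oncomodulin, had 2.89 and 4.08 TPM against 17 and 13.2 TPM (adjusted p = 0.103, and 0.0438 with the block).

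Outer hair cell genes were low or split, while the inner hair cell list had a median above 0. Slc26a5, the motor protein of mature outer hair cells, was under 1 TPM in all 4 libraries and was not tested. Of 7 outer hair cell genes 5 were tested and 0 called (1 higher with the replicate block), and their median of -0.02 changed sign under TMM scaling (0.15) and quantile normalization (0.16). Of 5 inner hair cell genes 4 were tested, with Slc17a8 called higher and a median of 1.10 (1.97 and 0.39 in the pairs). Dnajc5b, a vesicle co-chaperone, had 9.83 and 67.7 TPM unsorted and 158 and 90.5 TPM sorted (adjusted p = 0.14).

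The highest differences among called genes with a standard name and a mean of 10 TPM or more, leaving out ribosomal and mitochondrial genes, were outside the hair cell lists. The predicted gene Gm10491, which has no standard name, had a higher one, 5.39 (0 and 10.3 TPM unsorted, 118 and 165 TPM sorted, adjusted p = 0.00735). Of the named genes the highest was Col6a4, a collagen VI chain, with 0.0392 and 3.64 TPM unsorted and 26.6 and 29.8 TPM sorted (difference 3.73, SE 0.51, adjusted p = 0.00599). Myo15b, an unconventional myosin gene distinct from Myo15, had 0.302 and 5.11 TPM against 35.1 and 32 TPM (difference 3.61, adjusted p = 0.00909). In both, the sorted libraries were nearly equal and unsorted replicate 2 was above unsorted replicate 1.

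The next of the 12 genes named for their size were Rgs11, Lgals4, Amy1, Tnni3, Reg2, Dynlt1c, Rsph10b, Ttll3, Matk and Atp2b4, with differences from 3.50 down to 2.75. Tnni3, the inhibitory troponin of heart muscle, had 2.26 and 6.06 TPM unsorted and 47.3 and 47.1 TPM sorted (difference 3.33, SE 0.52, adjusted p = 0.00864). Rgs11, which speeds the switching off of G proteins, had 3.76 and 46.7 TPM against 227 and 125 TPM (difference 3.50, SE 0.87, adjusted p = 0.0374). Atp2b4, a calcium pump of the plasma membrane, had 26.9 and 58.3 TPM against 291 and 254 TPM (difference 2.75, SE 0.65, adjusted p = 0.0314). Rsph10b, a radial spoke protein of motile cilia, and Ttll3, an enzyme that adds glycine to tubulin, had differences of 2.97 and 2.95. Amy1, salivary amylase, and Dynlt1c, a dynein light chain, belong to families of near-identical genes, so their reads may be split between copies. In all 12 genes the replicate 1 pair differed more than the replicate 2 pair, as with Lgals4, a galectin (4.96 and 1.85).

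On the other side, 3 supporting cell genes were called lower in the sorted libraries. Of 22 listed genes 16 were tested, 13 were not called, and 0 were higher (4 lower with the replicate block). The sorted libraries lay below the unsorted ones for 8, above for 3 and overlapped for 5, with a median of -0.82. Over all tested genes, 33.9% lay below and 24.6% above. Epyc, a small leucine-rich proteoglycan of the supporting cell layer, had 360 and 267 TPM unsorted and 16.1 and 16.7 TPM sorted (difference -4.16, SE 0.87, adjusted p = 0.0196). Lgr6, a Wnt-amplifying receptor related to Lgr5, had 26.7 and 9.69 TPM against 1.75 and 1.43 TPM (difference -2.73, SE 0.52, adjusted p = 0.0154). Sox9, a transcription factor of the prosensory domain and supporting cells, had 78.5 and 74.6 TPM against 14.9 and 21.5 TPM (difference -2.03, SE 0.40, adjusted p = 0.0166). The sorted libraries kept 19 and 28.9% of the Sox9 level of their unsorted pair.

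A pair of usual markers of the starting cells did not follow these 3 genes. Lgr5 had 61.8 and 4.18 TPM unsorted and 3.67 and 5.11 TPM sorted, so its groups overlapped and its high value was in 1 unsorted library (adjusted p = 0.355). Sox2, a factor of progenitors, supporting cells and young hair cells, had 14 and 41.2 TPM unsorted and 70.2 and 52.7 TPM sorted (difference 1.30, SE 0.66, adjusted p = 0.232). Among the gap junction genes, Gjb2 had 53.7 and 73.5 TPM against 8.65 and 17.3 TPM (adjusted p = 0.0566, and 0.0221 with the replicate block). Its partner Gjb6 had 129 and 357 TPM against 51.1 and 107 TPM (adjusted p = 0.499).

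Genes of other cochlear epithelium and of the extracellular membranes gave 1 call. Of 10 genes of other cochlear epithelium 6 were tested and 1, Clu, was called lower. Clu, the secreted chaperone clusterin, had 3311 and 1980 TPM unsorted and 261 and 295 TPM sorted (difference -3.20, SE 0.44, adjusted p = 0.00599), the lowest adjusted p among the named lower genes. Slc26a4, an anion exchanger of the outer sulcus and neighboring cells, had 22.4 and 99.5 TPM against 11.3 and 13.9 TPM (adjusted p = 0.151). Of 8 tectorial and otolithic matrix genes 6 were tested and 0 called. Otoa, which anchors the tectorial membrane, had 492 and 1292 TPM against 280 and 243 TPM (adjusted p = 0.131).

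Epithelial junction and keratin genes were the list with the most lower calls. All 16 were tested, 4 were called lower and 0 higher, and 9 were lower with the replicate block. The sorted libraries lay below the unsorted ones for 12, against 33.9% of all tested genes, and overlapped for 4. The median was -1.64 (-2.75 and -0.74 in the pairs). Krt19, a keratin of simple epithelia, had 81.4 and 30 TPM unsorted and 2.89 and 4.48 TPM sorted (difference -3.45, SE 0.60, adjusted p = 0.0109). Cdh1, the adhesion protein E-cadherin, had 307 and 39.7 TPM against 11 and 7.91 TPM (difference -3.44, SE 0.90, adjusted p = 0.045). Cldn6, a tight junction claudin, had a difference of -2.56 (SE 0.52, adjusted p = 0.0184), and that of Epcam, an epithelial adhesion protein, was -1.65 (SE 0.32, adjusted p = 0.0161).

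Even after the sort these genes were not gone. Epcam had 238 and 253 TPM in the sorted libraries, against 971 and 611 TPM unsorted. Krt18, a keratin, had 2673 and 864 TPM unsorted and 359 and 520 TPM sorted (adjusted p = 0.126, and 0.0451 with the replicate block). Cldn9, a claudin that hair cells also need, had 1648 and 885 TPM unsorted and 898 and 821 TPM sorted, which overlapped.

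**Figure D3:**
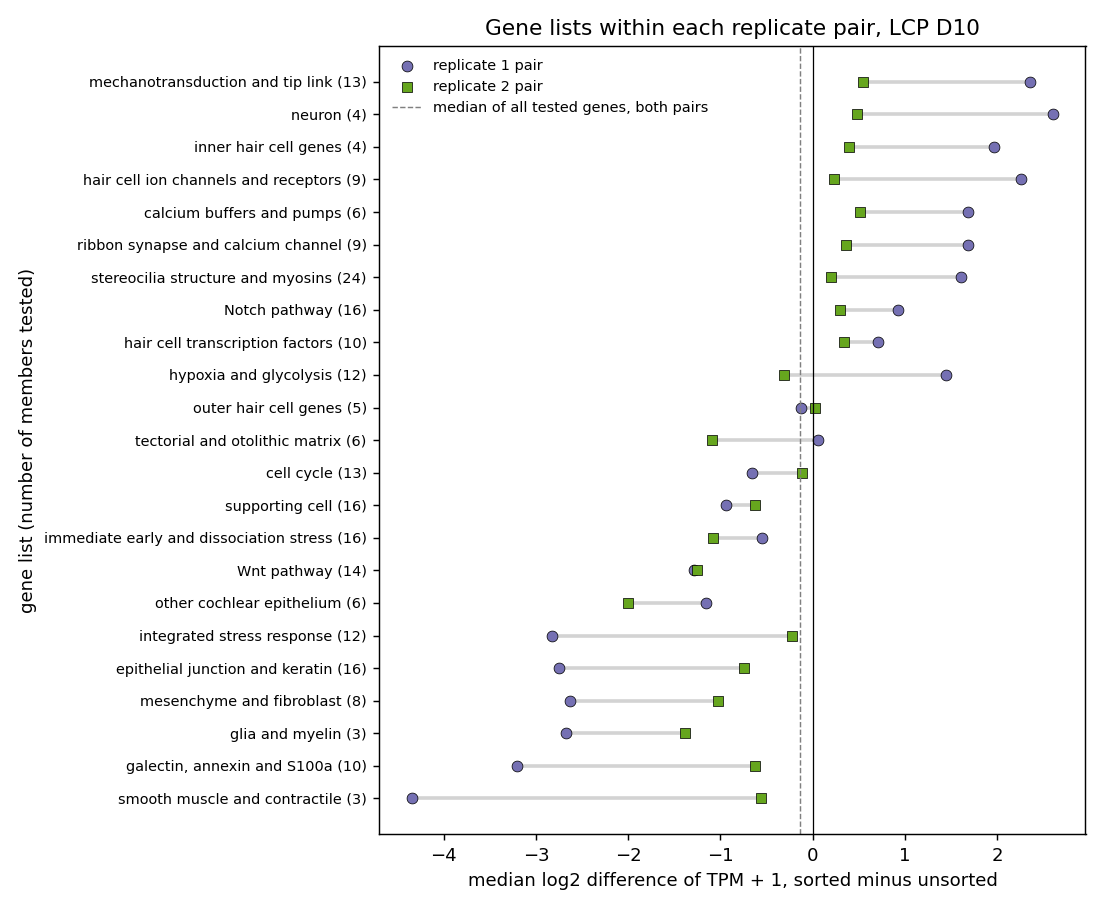
Median log2 difference (sorted minus unsorted) of the tested members of each gene list in the replicate 1 pair and in the replicate 2 pair, with the median of all tested genes (-0.14) as a dashed line. Hair cell lists lie mostly to the right of the line and epithelial and matrix lists to the left. The neuron and Notch lists also lie to the right in both pairs. Most lists are farther from the line in the replicate 1 pair.

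Of the mesenchyme list, 3 matrix genes fell. Of 25 mesenchyme and fibroblast genes 8 were tested, and the 3 called lower were Lum, Mgp and Dcn. Mgp, an inhibitor of calcification, had 140 and 39.3 TPM unsorted and 4.51 and 4.11 TPM sorted (difference -3.83, SE 0.67, adjusted p = 0.0109). Dcn, the proteoglycan decorin, had 279 and 205 TPM against 48.9 and 32.3 TPM (difference -2.56, SE 0.53, adjusted p = 0.0196). The list's summed level was 686 and 499 TPM unsorted and 73 and 58.2 TPM sorted. In each library most of it came from Lum, Dcn and Mgp, so the sum restates these 3 calls. Of the 25 genes, 12 were under 1 TPM in all 4 libraries and 5 reached 1 TPM in a single library. Col1a1, a fibrillar collagen chain, was among the 12, and Twist2, a mesenchymal transcription factor, was listed at 0 in all 4. Col3a1, another collagen chain, had 8.83 TPM in unsorted replicate 2 and at most 0.109 TPM in the others. Fn1, fibronectin, had 18.9 and 1.95 TPM unsorted and 1.92 and 3.31 TPM sorted, which overlapped (adjusted p = 0.413). The part of mesenchymal cells in the matrix calls was not tested.

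Of 12 galectin, annexin and S100a genes 10 were tested and 2 were called lower (4 with the replicate block). Lgals1, a galectin, had 148 and 17.1 TPM unsorted and 0.377 and 2.17 TPM sorted (difference -4.63, SE 0.97, adjusted p = 0.0196). Anxa2, a membrane-binding annexin, had 494 and 172 TPM against 42.6 and 55.2 TPM (difference -2.56, SE 0.53, adjusted p = 0.0196). In both genes unsorted replicate 1 was the highest library. Spp1, the secreted protein osteopontin, went the other way in value, with 444 and 5063 TPM against 12732 and 7829 TPM (adjusted p = 0.239).

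The remaining genes named for their size were Blnk, Ddit4l, Tnfrsf19, Prr5l and Vav3, with differences from -3.61 to -3.29. Blnk, a signaling adaptor known from B cells, had 28.1 and 14.6 TPM unsorted and 1.3 and 0.336 TPM sorted (difference -3.61, SE 0.53, adjusted p = 0.00735), and its pairs were alike (-3.66 and -3.55). Tnfrsf19, a receptor found in progenitors of several epithelia, had 84.8 and 23.6 TPM against 3.83 and 2.27 TPM (difference -3.53, SE 0.74, adjusted p = 0.0196). Ddit4l, an inhibitor of mTOR signaling, was the only named lower call of the 5 with more in unsorted replicate 2 (31.3 TPM) than in replicate 1 (7.06 TPM).

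Of the signaling pathways, Wnt and Notch gave 1 call between them. Of 18 Wnt pathway genes 14 were tested, 1 was called lower and 0 higher, and with the replicate block 7 were lower. The median was -1.29, with -1.29 and -1.26 in the pairs. The sorted libraries lay below the unsorted ones for 9 of 14, against 33.9% of all tested genes. Wnt5a, a noncanonical Wnt ligand, had 116 and 100 TPM unsorted and 13.9 and 18.8 TPM sorted (difference -2.66, SE 0.57, adjusted p = 0.021). Ctnnb1, beta-catenin, had 282 and 202 TPM against 117 and 83.1 TPM (adjusted p = 0.085, and 0.0176 with the block), and whether the floxed allele named in the labels was present in these cultures is not known. Whether Wnt and Notch genes differ as groups was not tested.

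Of 20 Notch pathway genes 16 were tested and 0 were called, with 1 higher under the replicate block. That was Jag2, a Notch ligand of hair cells, with 12 and 21.4 TPM unsorted and 34.8 and 29.5 TPM sorted (adjusted p = 0.144, and 0.0404 with the block). The sorted libraries lay above the unsorted ones for 8 of the 16 and below for 7, against 24.6 and 33.9% of all tested genes. Hes6, a factor downstream of Atoh1, had 53.5 and 75.8 TPM against 104 and 114 TPM (adjusted p = 0.183), while the receptor Notch1 had 16 and 28.8 TPM against 6.83 and 3.81 TPM (adjusted p = 0.177). Of 28 cell cycle genes 13 were tested and 0 called. Mki67, a marker of dividing cells, was at most 0.111 TPM in the 4 libraries and was not tested.

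Integrated stress response genes were at their highest summed level in unsorted replicate 1. Of 12 genes of the integrated stress response 2, Nupr1 and Phgdh, were called lower. Phgdh, the first enzyme of serine synthesis, had 275 and 53.2 TPM unsorted and 21.3 and 20.7 TPM sorted (difference -2.48, SE 0.52, adjusted p = 0.0196). The list's summed level was 3621 TPM in unsorted replicate 1, 760 TPM in unsorted replicate 2, and 666 and 633 TPM in the sorted libraries. Of 16 immediate early genes 0 were called (2 lower with the replicate block), and Fos, which responds to cell dissociation within minutes, had 51.8 and 1313 TPM unsorted and 251 and 442 TPM sorted. Of 12 hypoxia and glycolysis genes 0 were called (1 lower with the block), and Aldoa, a glycolytic enzyme, had 654 and 2241 TPM against 2804 and 2281 TPM (adjusted p = 0.202). The part of stress in the matrix and epithelial calls was not tested.

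No gene of the erythroid or endothelial lists was tested, so none could be called. Of the melanocyte, glial, immune and neuronal lists, 1, 3, 2 and 4 genes were tested, and 0 were called. Erythroid genes summed to 0.16 to 0.712 TPM, endothelial genes to 1.26 to 4.49 TPM and melanocyte genes to 0.938 to 2.17 TPM over the 4 libraries. Glial genes summed to 55.8 and 15.2 TPM unsorted and 6.43 and 7.69 TPM sorted, with Erbb3, a neuregulin receptor also found outside glia, at 35.9, 6.24, 1.5 and 1.62 TPM (adjusted p = 0.0936, and 0.0188 with the replicate block). Immune genes summed to 49.7 and 7.72 TPM unsorted and 10.6 and 6.63 TPM sorted, with most of the unsorted value from Cd74, the class II invariant chain (40.4 and 5.04 TPM against 2.21 and 0.403 TPM, adjusted p = 0.0724, and 0.0213 with the block). Neuronal genes summed to 74.9 and 279 TPM unsorted and 407 and 346 TPM sorted. Nefl, a neurofilament, had 14.7 and 101 TPM against 156 and 84.1 TPM, which overlapped (adjusted p = 0.358). Of 12 neuronal genes 4 were tested, with 0 calls and a median of 1.30 (2.61 and 0.48 in the pairs). The sorted libraries lay above the unsorted ones for 3 of the 4, against 24.6% of all tested genes, and overlapped for 1.

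The same genes were read in the native P2 sorts, which share no library with the day 10 comparison but share its estimate of the spread. The difference there sets the Atoh1 sort against the average of both other sorts, that is, hair cells minus supporting cells as far as the sorts separate them. In that contrast 31 genes were called, 3 higher (0.0246%) and 28 lower (0.23%), while 1517 genes were under 0.05 before adjustment. The 31 calls became 16 and 3 without Atoh1 sort replicates 1 and 2, 6 without Lgr5 sort replicate 1, and 10 and 7 without Sox2 sort replicates 1 and 2. Through the shared spread they also became 16 without either sorted day 10 library and 47 without either unsorted one. Of the 405 lower calls of day 10, 338 (83.5%) were below 0 in the native contrast, against 41.1% of all tested genes, and their median was -0.67, against 0.09 for all genes. Of the 285 higher calls, 171 (60%) were above 0, against 58.9% of all genes, and their median was 0.09, the same as for all genes. These shares are descriptions over genes, with no test.

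Of the 28 native lower calls, 15 were also lower calls of day 10, which is 53.6% of the native list and 3.7% of the day 10 list. Over all tested genes, 3.32% were lower calls of day 10. Both contrasts used the same estimate of each gene's spread, so genes of small spread pass more easily in both. The call lists are therefore not independent, and their overlap is a description. They were Mmp14, Rhoc, Lamb1, Elovl1, Mgst1, Rcn3, Npc2, Afap1l2, Plxdc2, Tspan15, Tmem51, Npnt, Sorl1, Mest and Plpp2. No higher call was shared. Npnt, the basement membrane protein nephronectin, differed by -2.35 in the cultures and by -3.43 in the native sorts (adjusted p = 0.000329 there). Mgst1, a microsomal glutathione transferase, differed by -2.37 and -2.51 (adjusted p = 0.00688 in the native sorts). Mmp14 is a membrane-bound matrix protease and Lamb1 a laminin chain, and both act at the matrix.

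**Figure D4:**
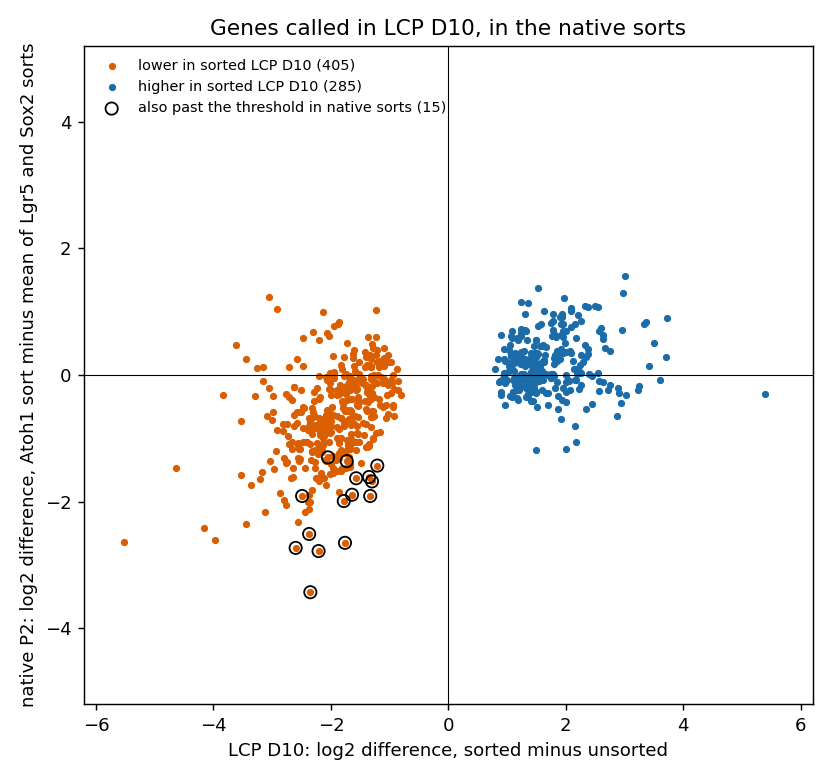
Log2 difference of each called gene in the day 10 cultures (x axis, sorted minus unsorted) and in the native P2 sorts (y axis, Atoh1 sort minus the average of the other sorts), with rings on the 15 genes past the threshold in both. Most of the 405 lower calls lie below 0 on the y axis, while the 285 higher calls scatter about 0.

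The hair cell genes called in the cultures had native differences in the same direction that did not pass: 0.42 for Loxhd1 (adjusted p = 0.763), 0.64 for Cdh23 (adjusted p = 0.518), 0.80 for Myo15 (adjusted p = 0.514), 0.72 for Cacna1d (adjusted p = 0.375) and 0.82 for Slc17a8 (adjusted p = 0.424). Loxhd1 was lowest in the Lgr5 sort and not higher in the Atoh1 than in the Sox2 sort. It had 21.8 ± 6.03 TPM in the Atoh1 sort, 10.7 ± 2.93 TPM in the Lgr5 sort and 25.2 ± 14.2 TPM in the Sox2 sort (mean ± SD, n = 2). Atoh1 itself had 135 ± 37.2, 54.4 ± 25.7 and 67.2 ± 25.4 TPM in these sorts. How far hair cell RNA in the other sorts narrows this contrast was not tested. The hair cell lists, subtypes included, had native medians of 0.77 to 0.92, against 0.09 for all tested genes. Lum was lower in the Atoh1 sort, at 52.7 ± 34.3 TPM, than in the Lgr5 sort (419 ± 250 TPM) and the Sox2 sort (223 ± 61.5 TPM), a difference of -2.60 (adjusted p = 0.091). For Col6a4 the native levels were low, at 1.65 ± 0.886 TPM in the Atoh1 sort, against 26.6 and 29.8 TPM in the sorted cultures. Mgp had 5.24 ± 1.96 TPM in the Atoh1 sort and 7.9 ± 5.51 and 6.5 ± 3.1 TPM in the Lgr5 and Sox2 sorts, a native difference of -0.31 (adjusted p = 0.881).

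At D0, before differentiation, sorted and unsorted LCP cultures were also measured. Lum had 495 ± 317 TPM unsorted and 478 ± 340 TPM sorted at D0, and Loxhd1 was at 0.084 ± 0.0035 TPM and 0.0234 ± 0.0331 TPM (n = 2 each). Sox9 had 113 ± 8.12 TPM and 84.6 ± 39.6 TPM, and Clu 550 ± 44.3 TPM and 314 ± 97.1 TPM. Of the lower calls of day 10, 311 (76.8%) were below 0 at D0, against 70.7% of all genes. Of the higher calls, 178 (62.5%) were above 0 at D0, against 29.2% of all genes. The median D0 difference was -0.41 for the lower and 0.09 for the higher calls, against -0.26 for all genes. At D0 itself, 0 of these genes were called. When the day 10 difference minus the D0 difference was tested with limma, 0 genes passed, and 1441 were under 0.05 before adjustment. Among the 4 marker genes the values of this difference ran from -3.88 for Lum (adjusted p = 0.21) to 2.46 for Loxhd1 (adjusted p = 0.255). Leaving out unsorted D10 replicate 2 gave 319 calls in that test, leaving out sorted D0 replicate 1 gave 14, and leaving out unsorted D0 replicate 2 gave 3. The labels do not say whether the same sort was used on both days.

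The start regions of a few called genes were read for the E-box letters CAGCTG (the same on both strands) and CAGATG (read on both strands), letters that basic helix-loop-helix factors such as Atoh1 can bind. RefSeq windows of 250 bases before the start (GRCm38.p6) were found for 6 of 11 genes looked up. CAGCTG was in 2 of them, Myo15, which was higher in the sorted libraries, and Nupr1, which was lower, and CAGATG was in none. The 2 stretches are shown, 100 bases each and 5′ to 3′ on the gene's strand, to set a hair cell gene beside a gene of the unsorted cultures, with the motif in capitals. The first lies at chr11:60469210-60469309 on the + strand, with the motif starting at -82 from the RefSeq start. The second lies at chr7:126625621-126625720 on the - strand, with the motif starting at -211. The second stretch and its RefSeq start lie inside the annotated span of Nupr1, away from the outer 5′ end of that span.
Myo15: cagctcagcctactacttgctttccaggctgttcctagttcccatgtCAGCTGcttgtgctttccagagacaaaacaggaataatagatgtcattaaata
Nupr1: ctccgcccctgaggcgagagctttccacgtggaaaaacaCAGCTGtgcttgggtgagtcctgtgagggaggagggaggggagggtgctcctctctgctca
Among all 16387 windows 11.9% held CAGCTG, and among the tested genes 11.2% did. The share was 14% (28 of 200) for higher calls and 11.5% (36 of 314) for lower calls, and for CAGATG it was 12.5 and 11.8%, against 9.74% of tested genes. A match describes letters only and says nothing about binding.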

How the data were processed

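RNA was measured in 18 mouse cochlear libraries in 9 groups of 2, as the sample titles give them. Per the labels' protocols, cDNA was made with a SMARTer V4 kit, sheared and prepared with a ThruPLEX kit for single-end sequencing. These kits do not mark the strand, and an antisense gene cannot be separated from the gene it overlaps. A tamoxifen treatment and beta-catenin allele described in the labels match no sample title. Per the submitters' processing notes, which give no version or role, the tools were STAR, Salmon, FastQC and DESeq2 and the build mm10. The authors deposited 1 TPM value per gene and library, which divides by gene length and library total, so depth is unknown and no counting interval is given. Of 47729 gene identifiers, 47310 matched GENCODE release M21, of which 21697 are protein-coding, and the 419 others took 0.734 to 3.66% of the TPM.

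On the log2(TPM + 1) scale, protein-coding genes that reached 1 TPM in 2 or more of the 4 day 10 libraries entered limma 3.58.1 under R 4.3.3 (moderated, with trend), in 1 fit of all 18 libraries with a mean per group, with 9 residual and 4.3 prior degrees of freedom. P-values were adjusted by Benjamini-Hochberg over 12190 genes, threshold 0.05. Count models were not used. The fit was also run on simulated data that gave each gene the same spread in all groups, so that run could not check this assumption. Summaries used Python 3.11.15 with pandas 2.3.3 and numpy 2.4.6. The named genes (69) are the 12 highest and 12 lowest called genes with groups that do not overlap and a mean of 10 TPM or more in the higher one (no ribosomal, mitochondrial or nonstandard names), up to 4 called members and the most abundant uncalled member of each of 27 lists, and 10 fixed genes. Further list members, the 15 shared genes and those in the closing section were picked once values had been seen. The members and lists were chosen with earlier results of these data known.

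Day 10 libraries with the same number share a sequencing date in the labels, so the number was taken as pairing them. The labels date the RNA extraction of unsorted replicate 1 after its sequencing, so 1 of these dates may be wrong, and the pairing, the block and the date term rest on the sequencing date. As labelled, RNA extraction dates are shared in replicate 2 and differ in replicate 1, where extraction and sort cannot be told apart. The deviations of the day 10 pair, over genes, had a correlation of -0.0112, and over the 36 pairs of groups the range was -0.199 to 0.753 (median 0.138, 23 over 0.1). Alternatives were other pseudocounts, filters, gene types, scalings, sets of libraries, the replicate block, sequencing date as a term, no trend and leaving out each library.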

Additional observations from a re-analysis of the deposited data

How the results depend on the processing

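The day 10 comparison (690 calls) kept its count within 1.5 times with pseudocounts of 0.5 and 0.1, the other filters, no trend, and without mitochondrial or nonstandard genes. By direction it moved more: a pseudocount of 0.1 gave 142 higher and 383 lower, a filter at 5 TPM 165 and 371, and no filter 363 and 259, with 435 of the 690 genes shared. It rose to 1678 with all gene types, 1048 with TMM scaling, 1364 with quantile normalization, 1973 with the replicate block and 2366 with sequencing date as a term. It dropped to 342 in a fit of the 12 LCP libraries and 2 in a fit of the 4 alone, and leaving out 1 day 10 library gave 11 to 1878. The day 10 minus D0 test (0 calls) gave 1 with a pseudocount of 0.1, 14 with no filter, 43 with all gene types, 5 with TMM scaling and 18 with quantile normalization, and 0 to 319 with 1 library left out. The native contrast (31 calls) gave 47 with a pseudocount of 0.1, 290 with no filter, 183 with the filter over all 18 libraries, 138 with the replicate block and 217 with sequencing date as a term, and 3 to 47 with 1 library left out. The fit that leaves a group with 1 library assumes that it varies like the other groups. None of the 38 called named genes changed direction. Without unsorted day 10 replicate 1 the uncalled Fn1 (0.27), Fos (-1.97) and Lgr5 (0.04) changed sign, and Fos also without sorted replicate 2 (-0.06). With 1 day 10 library left out, their differences ran from -2.49 to 0.27 for Fn1, -1.97 to 2.66 for Fos and -3.56 to 0.04 for Lgr5. The replicate block gained 5 of the 30 uncalled tested named genes, given in the report, and lost none. The causes of these changes were not tested, beyond the fewer samples or genes in the fits that leave some out.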

Other observations

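Some genes of the lists were present in only 1 of the 4 day 10 libraries. With at least 10 TPM in 1 library and under 1 TPM in each of the other 3, 56 protein-coding genes were found in unsorted replicate 1, 2 in unsorted replicate 2, 0 in sorted replicate 1 and 2 in sorted replicate 2. Of the 56, 7 are in the gene lists. Lgals3, a galectin, had 95.9 TPM in unsorted replicate 1 and at most 0.578 TPM in the others. Lef1, a transcription factor that carries Wnt signals, had 64.5 TPM and at most 0.476 TPM, and Notum, a secreted enzyme that inactivates Wnt ligands, had 19.2 TPM and at most 0.311 TPM. Fst, the activin antagonist follistatin, had 28.9 TPM, S100a4, a calcium-binding protein, 15.2 TPM, and the contractile genes Cnn1 and Acta2 11.1 and 10.4 TPM in that library. None of the 7 entered the test, since each reached 1 TPM in a single library.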
